A study of Mus musculus with 4 samples.

Results

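Genes of cholesterol and fatty acid synthesis and of their control by the sterol regulatory element-binding proteins (SREBPs) were followed in mouse dendritic cells treated with SAHA or with diluent. The list held 36 genes named by their known roles, of which 35 were measured among 18194 genes on the arrays. These were 17 enzymes of sterol synthesis, 12 enzymes of fatty acid synthesis, and 6 genes of SREBP control and sterol transport. Acat2, an acetyl-CoA acetyltransferase of the first step, was not analysed here. Where a gene had several probe sets, the brightest on average stood for it, and every member value was at or above the 25th percentile of its own array.

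The treated cells were given SAHA, written as 500 nm in the labels, for 12 hours, and the control cells were given diluent for the same time. SAHA, the drug vorinostat, inhibits histone deacetylases. Both groups were grown from C57BL/6 marrow (3 or more mice per experiment) in GM-CSF and IL-4 (10 ng/ml of either) over 7 days. CD11c+ cells were then selected, with a stated purity of 95%. There were 2 arrays in each group. They are labelled as biological replicates, but whether separate cultures or marrow pools lie behind them is not said, and the p-values cover only array-to-array spread. With 2 arrays against 2, an exact two-sided permutation test of a single gene cannot go below p = 0.333.

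Cholesterol is built from acetyl-CoA through mevalonate, farnesyl diphosphate, squalene and lanosterol, and fatty acids are built from the same acetyl-CoA by carboxylation, chain synthesis, elongation and desaturation. When membrane sterol is low, the escort protein SCAP carries SREBPs from the endoplasmic reticulum to the Golgi, where proteases release their transcription factor domain. INSIG proteins hold SCAP back when sterol is plentiful. SREBP-2 acts mainly on sterol genes and SREBP-1 mainly on fatty acid genes, often together with the CCAAT-binding factor NF-Y or with Sp1. In dendritic cells and macrophages this pathway sets membrane lipid supply and is linked to innate immune signalling.

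Values are deposited log2 expression values per probe set, and a log2 change is the SAHA mean minus the control mean with its moderated standard error (SE). Across genes, arrays correlated at 0.995 within the SAHA group, 0.993 within the control group and 0.982 to 0.989 between groups. The dendritic cell markers were well expressed, from 6.72 to 14.45 over 10 genes that include Itgax (CD11c), Flt3 and Zbtb46, and their summed linear level was 75923 and 77235 in SAHA and 75756 and 74956 in control. That sum weights the brightest genes, H2-Aa, Cd74 and H2-Ab1, most. Irf4 (adjusted p = 0.0431) was the 1 of these 10 that rose in the limma fit, and none fell. Without passing, Cd86 had a log2 change of 1.04 (limma, adjusted p = 0.248) and Ccr7 of -0.49 (limma, adjusted p = 0.118). Of the 10 SAHA means, 6 were higher and 4 lower. Neutrophil markers moved with the treatment. Of 8 measured, S100a8, S100a9, Ngp, Camp and Ltf (5 genes) fell and none rose (limma, adjusted p under 0.05), and the summed linear level of all 8 was 1454 and 1455 in SAHA, against 3123 and 2966 in control. That count was 0 and 2 when SAHA replicate 1 or SAHA replicate 2 was left out, and 4 and 3 when control replicate 1 or control replicate 2 was. None of these 8 was under the 25th percentile on all arrays, and 2 were under the median on all arrays. No macrophage, B cell, T cell, NK cell, eosinophil, basophil or mast cell marker passed among 22 measured. Nearest was Mertk, a macrophage marker, with a log2 change of -0.92 (limma, adjusted p = 0.0509). All 5 macrophage and monocyte markers had a lower SAHA mean, as did 10692 of all 18194 genes. Apart from Mertk, their log2 changes ran from -0.46 ± 0.57 (SE) for Fcgr1 to -0.04 ± 0.10 for Csf1r. The summed linear level of all 5 was 28340.5 and 30966.8 in SAHA, against 31667.4 and 33857.2 in control. The part of the neutrophil shift, or of the lower macrophage levels, in the member values was not tested. In bulk RNA fewer cells of a type and less RNA per cell cannot be told apart.

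In the main fit, without a term for replicate number, no member passed the threshold in either direction. The threshold was an adjusted p under 0.05 (limma with Benjamini-Hochberg adjustment over all 18194 genes). Over all genes 2.23% passed, with 1.52% higher and 0.709% lower in SAHA. The smallest adjusted p among members was 0.0638, for Insig1. At an unadjusted p under 0.05 there were 12 members, 4 with a higher and 8 with a lower SAHA mean, against 18.1% of all genes (9.17% higher and 8.9% lower). For 19 of 35 members the SAHA arrays did not overlap the control arrays, a share close to the 50.7% of all genes. Of these 19, 8 lay higher in SAHA and 11 lower, against 21.1% and 29.6% of all genes. The median log2 change was 0.08 over the members and -0.05 over all genes, while the median size of the change, regardless of sign, was 0.35 for members and 0.17 for all genes.

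**Figure D1:**
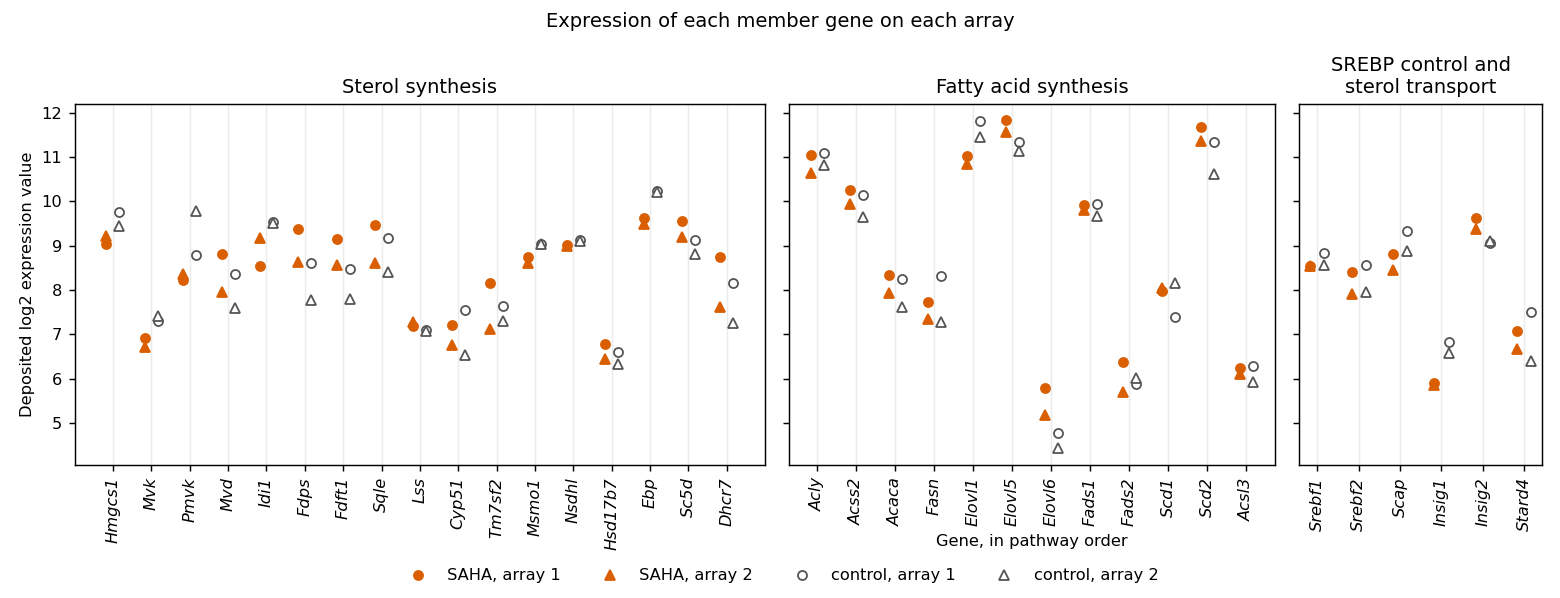
Deposited log2 expression value (vertical axis) of the 35 measured members on each of the 4 arrays, in pathway order; filled symbols are SAHA arrays, open symbols control arrays, circles array 1 and triangles array 2. The values run from 4.43 to 11.83, and for 19 genes the filled and open symbols do not overlap.

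**Figure D2:**
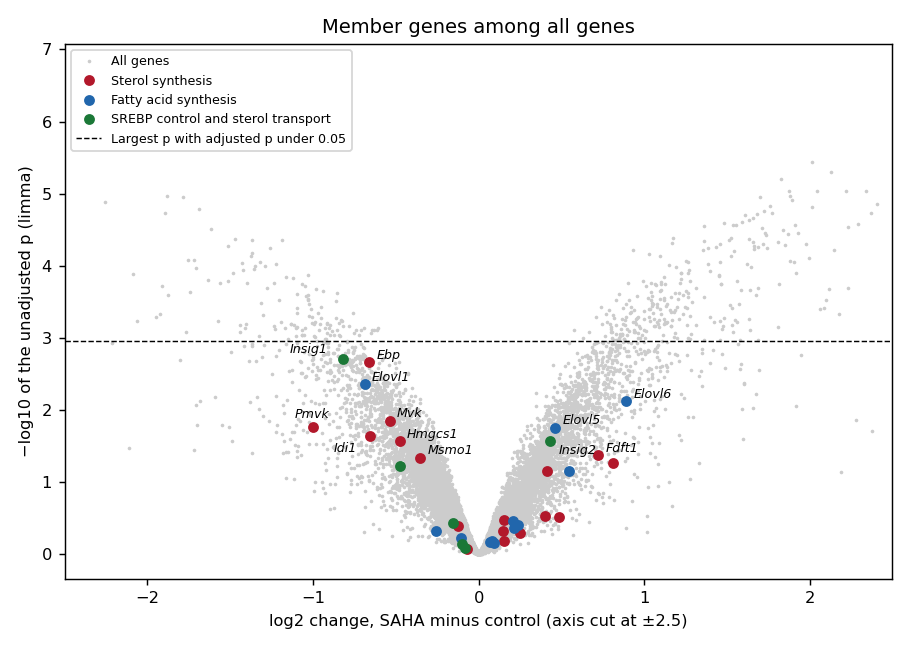
Log2 change (horizontal axis, SAHA minus control) against −log10 of the unadjusted limma p (vertical axis) for 18194 genes in grey, less 14 outside the plotted range, with the 35 members in colour by branch and those with p under 0.05 named. All members lie below the dashed line, which marks the largest unadjusted p (0.00110) that passes after adjustment.

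The members varied more between arrays of one group than most genes did. Their median standard deviation within a group, pooled over both groups, was 0.29 log2 units, against 0.13 over all genes. In 26 of 35 members array 1 was above array 2 in both groups, a pattern held by 28% of all genes. For 19 members the distance between arrays of one group was larger than the difference between the groups, which was so for 62% of all genes. The labels do not say what arrays of the same number share. A fit with replicate number as a term changed both the member count and the count over all genes, as given at the end.

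The 6 genes that control SREBPs or carry sterol held the smallest adjusted p of the list. Insig1, the sterol-induced retention protein and itself a known SREBP target, had values of 5.90 and 5.87 in SAHA, against 6.83 and 6.57 in control. Both SAHA arrays lay below both control arrays, with a 1.76-fold lower mean (log2 change -0.82 ± 0.16, SE, adjusted p = 0.0638). Its call depended on the scaling, as quantile normalization of the deposited values gave -0.87 and an adjusted p of 0.0470. Insig2, the second retention protein, whose expression is known not to need SREBPs, had 9.63 and 9.39 in SAHA and 9.05 and 9.10 in control. Here both SAHA arrays lay above both control arrays, the opposite of Insig1 (log2 change 0.43 ± 0.15, SE, adjusted p = 0.211). Insig1 had 1 probe set, and the further probe sets of Insig2 gave changes of 0.52 and 0.70.

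Scap, the escort protein, had 8.80 and 8.46 in SAHA and 9.33 and 8.88 in control, with both SAHA arrays below both control arrays (log2 change -0.48 ± 0.21, SE, adjusted p = 0.300). Its second probe set gave 0.12, the other direction. The SREBP genes themselves differed little. Srebf1, encoding SREBP-1, had 8.54 and 8.54 in SAHA and 8.83 and 8.56 in control, with a log2 change of -0.15 ± 0.16. Srebf2, encoding SREBP-2, had 8.41 and 7.91 in SAHA and 8.56 and 7.96 in control, with a log2 change of -0.10 ± 0.26. The groups of Srebf2 overlapped, and array 1 was the higher one in each. Stard4, a sterol carrier protein and known SREBP-2 target, had 7.08 and 6.66 in SAHA, against 7.50 and 6.41 in control. Its control arrays were 1.09 log2 units apart and enclosed both SAHA arrays.

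The 250 bases before the start sites of the INSIG genes are shown because the members that hold SCAP back went opposite ways. They come from RefSeq (GRCm38.p6), and where several start sites are listed the most upstream was taken. Capitals mark matches to CCAAT, the letters bound by NF-Y, to the E-box CACGTG, and to TCACNCCAC, a core of the sterol regulatory element, with N any base, on either strand (CCAAT reads ATTGG on the other).
Insig1 (chr5:28071162-28071411, plus strand): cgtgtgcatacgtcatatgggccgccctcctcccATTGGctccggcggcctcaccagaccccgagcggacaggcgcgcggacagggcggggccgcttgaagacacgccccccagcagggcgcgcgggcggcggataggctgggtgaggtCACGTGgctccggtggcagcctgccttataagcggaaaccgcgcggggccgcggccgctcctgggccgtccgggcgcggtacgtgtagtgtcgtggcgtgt
Insig2 (chr1:121332590-121332839, minus strand): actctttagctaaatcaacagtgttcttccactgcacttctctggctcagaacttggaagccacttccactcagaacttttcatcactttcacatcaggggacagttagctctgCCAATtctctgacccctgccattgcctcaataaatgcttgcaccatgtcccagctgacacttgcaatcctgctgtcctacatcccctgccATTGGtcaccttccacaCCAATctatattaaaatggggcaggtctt
The Insig1 window held 1 CCAAT match and 1 E-box, and the Insig2 window 3 CCAAT matches. A promoter was matched for 29 of the 36 listed genes, Acat2 included, and not for Fdps, Fdft1, Sqle, Fads1, Scd1, Scd2 and Stard4. CCAAT was found in 22 of these 29, against 34.5% of 27025 promoters of the same length. By branch it was found in 13 of 15 sterol genes, 5 of 9 fatty acid genes and 4 of 5 control genes. GGGCGG, the GC box bound by Sp1, which is not capitalised, was found in 21 of 29 member promoters and in 33% of all promoters. The Insig1 window held it and the Insig2 window did not. The E-box was found in 4 of 29 and in 6.04% of all promoters, and TCACNCCAC in 1 of 29 and in 1.03%. Among member promoters 1 pair of matches to different motifs overlapped. The members were listed by role in a pathway described above as working with NF-Y or Sp1. The 27025 promoters were not limited to genes expressed in these cells, so the shares are a description only. A match describes the letters and is not evidence of binding.

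In the first part of sterol synthesis, from mevalonate production to the isoprenoid units, 4 of 5 measured genes had both SAHA arrays below both control arrays, as did 29.6% of all genes. Splitting the sterol genes by step was decided after their values were seen, so the count is a description only. The median log2 change of these 5 genes was -0.54, and each of the 4 lower genes had an unadjusted p under 0.05, as did 8.9% of all genes in that direction, with an adjusted p of 0.158 to 0.211. Hmgcs1, which makes HMG-CoA and is a known SREBP-2 target, had 9.04 and 9.21 in SAHA and 9.77 and 9.44 in control (log2 change -0.48 ± 0.17, SE). Its probe set may cross-hybridise with other transcripts, judging by its suffix. The further Hmgcs1 probe sets gave -0.24, -0.42 and -0.36, and a dim one gave 0.07. Mvk, mevalonate kinase, had 6.92 and 6.71 in SAHA and 7.30 and 7.40 in control (log2 change -0.54 ± 0.16, SE), and its second probe set gave -0.37.

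Pmvk, phosphomevalonate kinase, had 8.22 and 8.36 in SAHA and 8.79 and 9.79 in control, the largest fitted change of the list (log2 change -1.0 ± 0.31, SE). The control arrays of Pmvk were 1.00 log2 unit apart. Without control replicate 1 its change was -1.50 and passed the threshold (adjusted p = 0.0141), and without control replicate 2 it was -0.50 (adjusted p = 0.307). Idi1, the isomerase that converts isopentenyl to dimethylallyl diphosphate, had 8.55 and 9.17 in SAHA and 9.53 and 9.50 in control (log2 change -0.66 ± 0.22, SE). The SAHA arrays of Idi1 differed by 0.62, while its control arrays lay within 0.03 of each other. Its second probe set gave -0.73. Mvd, the decarboxylase between Pmvk and Idi1, stood apart with 8.80 and 7.97 in SAHA and 8.37 and 7.60 in control (log2 change 0.40 ± 0.35, SE). For Mvd the groups overlapped, and the arrays within a group were further apart than the group means.

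The windows before the start sites of Hmgcs1 and Idi1 are shown as those of enzymes from either end of this segment, with the same capitals.
Hmgcs1 (chr13:119690101-119690350, plus strand): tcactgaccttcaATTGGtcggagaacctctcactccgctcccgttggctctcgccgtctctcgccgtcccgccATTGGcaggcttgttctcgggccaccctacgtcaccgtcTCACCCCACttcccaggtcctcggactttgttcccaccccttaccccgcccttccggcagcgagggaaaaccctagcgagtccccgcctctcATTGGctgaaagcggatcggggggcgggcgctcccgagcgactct
Idi1 (chr13:8885356-8885605, plus strand): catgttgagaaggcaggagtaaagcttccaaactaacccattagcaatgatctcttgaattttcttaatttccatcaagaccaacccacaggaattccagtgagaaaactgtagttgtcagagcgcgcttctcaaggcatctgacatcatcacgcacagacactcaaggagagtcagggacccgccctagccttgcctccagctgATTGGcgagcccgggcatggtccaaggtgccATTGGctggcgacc
Hmgcs1 held 3 CCAAT matches and the single TCACNCCAC match among the member promoters, which began 137 bases before the start site. Idi1 held 2 CCAAT matches, beginning 45 and 14 bases before it.

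From farnesyl diphosphate to lanosterol the 4 measured genes all had a higher SAHA mean, as did 7502 of all 18194 genes. The median log2 change of the 4 was 0.49, and none of them passed the threshold. Fdps, farnesyl diphosphate synthase, had 9.38 and 8.62 in SAHA and 8.61 and 7.76 in control, a 1.76-fold higher mean (log2 change 0.81 ± 0.34, SE, adjusted p = 0.284). The lower SAHA array and the higher control array of Fdps differed by 0.01. Fdft1, squalene synthase, had 9.14 and 8.57 in SAHA and 8.47 and 7.79 in control (log2 change 0.72 ± 0.29, SE, adjusted p = 0.256). Its probe set may likewise cross-hybridise, and further ones gave 0.47, -0.02 and -0.23, the last pair with values of 4.70 to 5.38. In both genes each group's array 1 was higher than its array 2 by 0.58 to 0.85. Between arrays of the same number, which the labels do not pair, Fdps was higher in SAHA by 0.77 and 0.86 and Fdft1 by 0.67 and 0.78. For some other members these differences had opposite signs, as for Cyp51 (-0.35 and 0.21).

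Sqle, squalene epoxidase, had 9.48 and 8.61 in SAHA and 9.17 and 8.41 in control, and the groups overlapped (log2 change 0.25 ± 0.35, SE). Lss, lanosterol synthase, had 7.20 and 7.28 in SAHA and 7.09 and 7.07 in control (log2 change 0.16 ± 0.15, SE). Its arrays lay close together, and the difference between groups was about as large as its SE.

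The 8 genes from lanosterol to cholesterol went both ways, with 4 means higher and 4 lower in SAHA and a median log2 change of 0.04. Ebp, the sterol isomerase also known as emopamil-binding protein, had 9.63 and 9.50 in SAHA and 10.24 and 10.21 in control. Its arrays lay close together within each group, and its mean was 1.58-fold lower in SAHA (log2 change -0.66 ± 0.13, SE, adjusted p = 0.0666). Msmo1, the C4 methylsterol oxidase, had 8.75 and 8.61 in SAHA and 9.03 and 9.03 in control (log2 change -0.35 ± 0.14, SE, adjusted p = 0.265). Nsdhl, its partner in C4 demethylation, had 9.01 and 8.98 in SAHA and 9.13 and 9.11 in control (log2 change -0.12 ± 0.14, SE). Ebp, Msmo1 and Nsdhl, 3 of these 8 genes, each had both SAHA arrays below both control arrays, as did 29.6% of all genes.

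Sc5d, the C5 desaturase, had 9.56 and 9.20 in SAHA and 9.12 and 8.81 in control, with both SAHA arrays above both control arrays (log2 change 0.41 ± 0.19, SE, adjusted p = 0.321). Its further probe sets gave 1.14 and 0.25. Dhcr7, the last reductase of the Kandutsch-Russell route, had 8.75 and 7.63 in SAHA and 8.16 and 7.25 in control (log2 change 0.48 ± 0.43, SE). The SAHA arrays of Dhcr7 were 1.12 log2 units apart, the widest distance of any member. Tm7sf2, a C14 reductase, had 8.15 and 7.12 in SAHA and 7.65 and 7.30 in control, and the SAHA arrays enclosed the control arrays. Cyp51, lanosterol 14-demethylase, had 7.21 and 6.75 in SAHA and 7.56 and 6.54 in control, and here the control arrays enclosed the SAHA arrays. Hsd17b7, a 3-ketosteroid reductase, had 6.79 and 6.44 in SAHA and 6.60 and 6.33 in control. Its probe set, which may cross-hybridise, gave 0.15, while its further probe sets gave -0.18 and -0.23 and one under the 25th percentile on all 4 arrays gave -0.14, so its direction depended on the probe set. In all 8 of these genes array 1 was above array 2 in both groups.

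**Figure D3:**
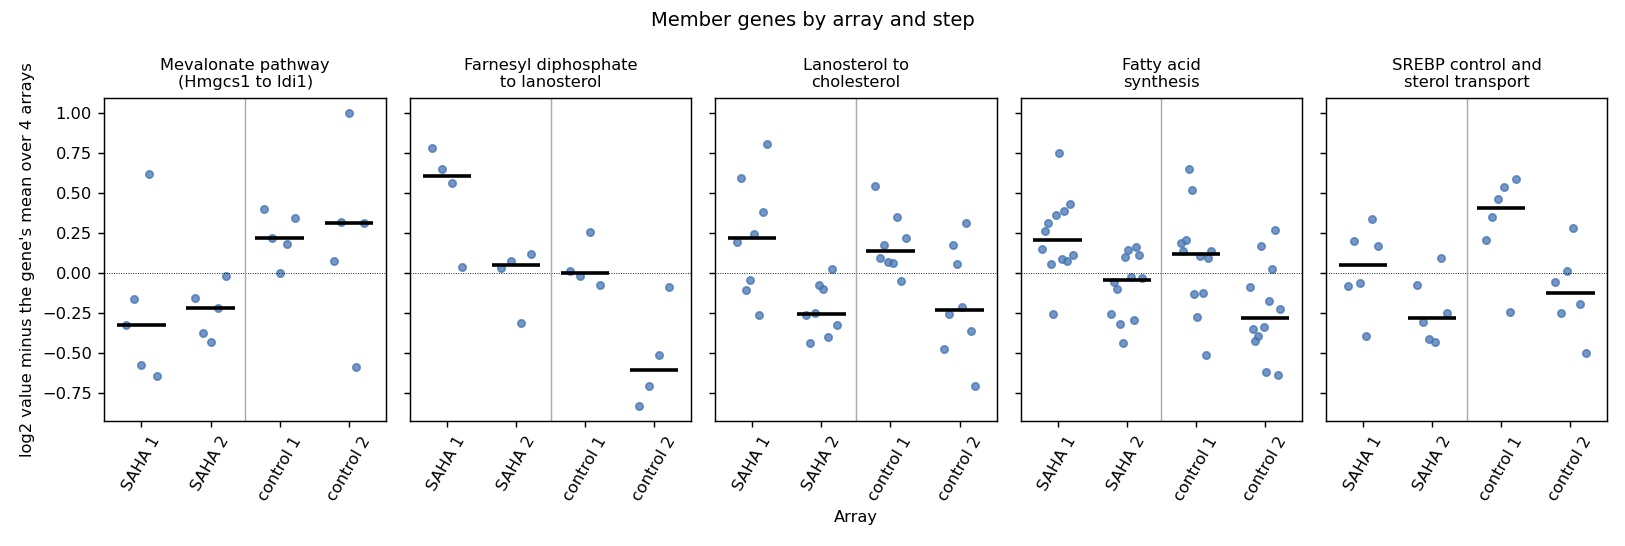
Log2 value of each member minus that gene's mean over the 4 arrays (vertical axis), by array, in 5 groups of genes; points are genes and bars their median. The SAHA bars lie at -0.32 and -0.22 for the first 5 genes of sterol synthesis and at 0.60 and 0.05 for the next 4, against control bars at 0.22 and 0.31 and at -0.00 and -0.61.

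In fatty acid synthesis 3 of 12 measured genes had an unadjusted p under 0.05, near the 18.1% of all genes. They were Elovl1, Elovl5 and Elovl6, elongases that went different ways. Elovl1, which extends saturated and monounsaturated very long chains, had 11.03 and 10.85 in SAHA and 11.80 and 11.45 in control. Its mean was 1.61-fold lower in SAHA, with both SAHA arrays below both control arrays (log2 change -0.69 ± 0.16, SE, adjusted p = 0.0939). The probe set used may cross-hybridise, and the 3 further Elovl1 probe sets gave -0.65, -0.69 and -0.64. Elovl5, an elongase of polyunsaturated chains, had 11.83 and 11.57 in SAHA and 11.34 and 11.13 in control, with both SAHA arrays above both control arrays (log2 change 0.46 ± 0.15, SE, adjusted p = 0.175). Its second probe set gave 0.48. Elovl6, which extends palmitate to stearate and is a known SREBP-1 target, had 5.80 and 5.19 in SAHA and 4.78 and 4.43 in control (log2 change 0.89 ± 0.23, SE, adjusted p = 0.121). Elovl6 was dim, with 3 of 4 values under the median of their array, and its further probe sets gave 0.71 and 0.17.

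The windows before the start sites of Elovl1 and Elovl5 are shown because these bright elongases lay on opposite sides.
Elovl1 (chr4:118427843-118428092, plus strand): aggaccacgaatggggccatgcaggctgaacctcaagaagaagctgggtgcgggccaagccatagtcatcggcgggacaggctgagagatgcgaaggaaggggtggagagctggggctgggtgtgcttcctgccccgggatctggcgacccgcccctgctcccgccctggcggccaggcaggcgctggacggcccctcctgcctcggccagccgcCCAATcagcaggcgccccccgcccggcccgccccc
Elovl5 (chr9:77917115-77917364, plus strand): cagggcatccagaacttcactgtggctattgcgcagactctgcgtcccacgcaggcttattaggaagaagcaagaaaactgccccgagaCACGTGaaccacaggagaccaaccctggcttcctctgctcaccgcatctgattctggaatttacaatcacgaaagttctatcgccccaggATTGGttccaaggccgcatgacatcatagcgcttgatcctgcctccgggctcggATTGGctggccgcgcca
Elovl1 held 1 CCAAT match and Elovl5 held 2, with 1 E-box. GGGCGG, not capitalised, was found in the Elovl1 window and not in the Elovl5 window.

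Among the desaturases, Scd2, a stearoyl-CoA desaturase, had 11.67 and 11.35 in SAHA and 11.33 and 10.61 in control. Its nearest arrays of the groups differed by 0.02 (log2 change 0.54 ± 0.25, SE, adjusted p = 0.321), and further probe sets gave 0.42 and 0.22. Scd1, the other stearoyl-CoA desaturase measured, had 7.97 and 8.06 in SAHA and 7.38 and 8.16 in control, with 1 control array above and 1 below the SAHA arrays. Fads1, the delta-5 desaturase, had a log2 change of 0.07 ± 0.15 and Fads2, the delta-6 desaturase, of 0.10 ± 0.24, both with overlapping groups. Further probe sets gave -0.01 for Fads1, 0.02 and 0.41 for Fads2, and 0.69 for Scd1. On the Fads2 probe set at 0.41 both SAHA arrays lay above both control arrays.

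The enzymes that make and commit acetyl-CoA differed by less than the spread between arrays. Acly, ATP-citrate lyase, had 11.04 and 10.64 in SAHA and 11.08 and 10.81 in control, and Acss2, which makes acetyl-CoA from acetate, had 10.26 and 9.94 in SAHA and 10.14 and 9.65 in control. Acaca, acetyl-CoA carboxylase, had 8.35 and 7.93 in SAHA and 8.24 and 7.61 in control. Fasn, fatty acid synthase, had 7.72 and 7.35 in SAHA and 8.32 and 7.27 in control, and the control arrays were 1.04 log2 units apart and enclosed both SAHA arrays. Acsl3, an acyl-CoA synthetase of the endoplasmic reticulum and lipid droplets, had 6.25 and 6.11 in SAHA and 6.28 and 5.92 in control. The log2 changes of these 5 genes ran from -0.26 for Fasn to 0.21 for Acaca.

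**Figure D4:**
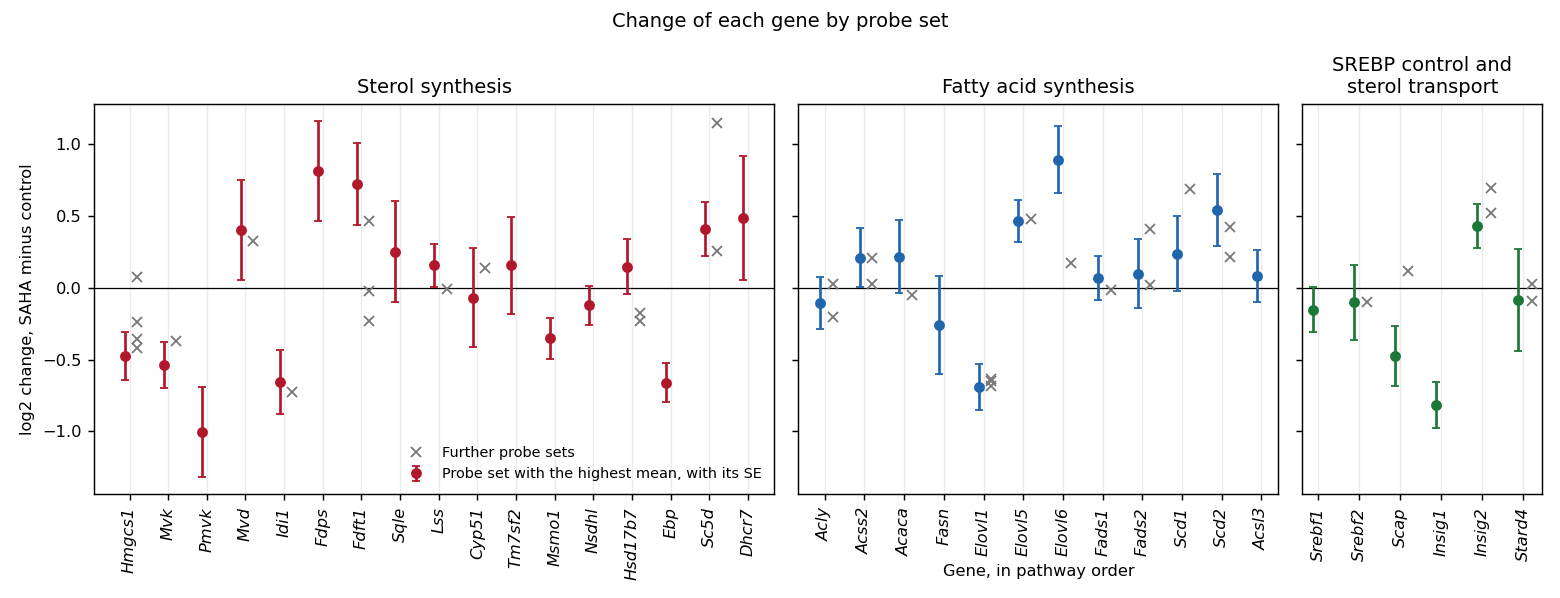
Log2 change of SAHA minus control (vertical axis) for each member, with bars of 1 SE, in pathway order; grey crosses are the 38 further probe sets whose 4 values were all at or above the 25th percentile of their array. Of these crosses 26 have the same sign as the gene's main probe set and 12 the other, and the log2 changes of the 35 genes run from -1.0 for Pmvk to 0.89 for Elovl6.

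The sterol and fatty acid branches had nearly the same median log2 change, 0.15 over 17 genes and 0.15 over 12 genes, a difference of -0.01. Means were higher in SAHA for 9 of 17 sterol genes, for 9 of 12 fatty acid genes and for 7502 of all 18194 genes. Arrays of the groups did not overlap for 11 of 17 sterol genes, 4 higher and 7 lower, and for 4 of 12 fatty acid genes, 3 higher and 1 lower. Over all genes 50.7% did not overlap, 21.1% higher and 29.6% lower, and the difference between the branches in this share was not tested. The sterol median depended on single arrays and probe sets. It was -0.18 without SAHA replicate 1 and -0.13 without control replicate 2, and -0.10 when a gene's probe sets were averaged. The fatty acid median was 0.01 without SAHA replicate 1, -0.05 without control replicate 2 and 0.11 with averaged probe sets. The difference of the medians, sterol minus fatty acid, was -0.19 without SAHA replicate 1, -0.12 without SAHA replicate 2 and -0.21 with averaged probe sets. The control and transport genes had a median of -0.13, which was 0.09 without control replicate 1 and -0.51 without control replicate 2. After subtracting each gene's mean over the arrays, the sterol genes had a median of 0.19 and -0.22 on the SAHA arrays and of 0.18 and -0.21 on the control arrays. For the fatty acid genes these medians were 0.21 and -0.04 in SAHA and 0.12 and -0.28 in control. In both branches these medians lay further apart between arrays of one group than between arrays of the same number.

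Neighbouring lipid pathways were read from lists of genes fixed by role, with earlier results of these data known. Of 62 measured genes on 7 such lists, 3 rose and none fell, while 2.23% of all genes passed. Ch25h, which makes 25-hydroxycholesterol, a known inhibitor of SREBP processing, was the 1 gene of 8 in sterol release, esterification and oxysterol synthesis to pass. It had 9.29 and 9.61 in SAHA and 8.41 and 8.56 in control, a 1.95-fold higher mean (log2 change 0.96 ± 0.17, SE, adjusted p = 0.0472). Dgat1, which makes triglyceride, passed among 12 genes of fatty acid uptake and storage, with 10.65 and 10.57 in SAHA and 9.66 and 9.55 in control, a 2.01-fold higher mean (log2 change 1.01 ± 0.13, SE, adjusted p = 0.0241). Acadl, a mitochondrial acyl-CoA dehydrogenase, passed among 8 genes of fatty acid oxidation, with 12.14 and 12.18 in SAHA and 11.51 and 11.56 in control (log2 change 0.63 ± 0.11, SE, adjusted p = 0.0474). All 3 had both SAHA arrays above both control arrays, as did 21.1% of all genes. They are named for passing the threshold, so this separation adds no support. Ch25h and Acadl lost the threshold without any 1 of the 4 arrays, and Dgat1 lost it without SAHA replicate 1 (adjusted p = 0.172) or SAHA replicate 2 (0.0942). Averaging probe sets gave Acadl 0.32 and Dgat1 0.68, and then none of the 3 passed.

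On the list of other SREBP targets no gene of 11 measured passed, and the median log2 change was 0.20. Against 7502 higher means among all 18194 genes, 6 were higher and 5 lower on this list. The largest changes there were Me1, the NADPH-producing malic enzyme, at -0.77 ± 0.16, Rdh11, a retinol dehydrogenase, at 0.70 ± 0.17, and Tmem97, the sigma-2 receptor, at -0.67 ± 0.18. None passed among 9 LXR receptors, targets and efflux genes (median -0.32). LXRs are the oxysterol-activated receptors that induce sterol efflux. Nr1h3, encoding LXR-alpha, had 6.12 and 6.51 in SAHA and 7.08 and 7.52 in control (log2 change -0.98 ± 0.22, SE, adjusted p = 0.0863). Smpdl3a, a phosphodiesterase induced by LXRs, was at -0.64 ± 0.14, and Apoe, the lipoprotein apolipoprotein, was at -0.69 ± 0.93 with values of 6.46 and 9.07 in SAHA and 7.45 and 9.47 in control, where array 2 was far above array 1 in each group.

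None passed among 5 genes of SREBP processing and turnover (median 0.11), where Rnf145 was at 0.23, Mbtps2, the site-2 protease, at 0.15 and Rnf139 at 0.11. None passed among 9 genes of isoprenoid synthesis and prenylation (median 0.12), where Ggps1, geranylgeranyl diphosphate synthase, was at 0.54 ± 0.17, Fnta, a prenyltransferase subunit, at -0.29 and Dhdds, a dolichol synthesis enzyme, at 0.21. On the lists with a call the next largest changes were Cyp27a1, sterol 27-hydroxylase, at 0.58 ± 0.14, lysosomal acid lipase Lipa at -0.15, Acsl5 at -0.57 ± 0.15, hormone-sensitive lipase Lipe at -0.35, Cpt1a, which brings acyl chains into mitochondria, at 0.38 ± 0.12, and Acadvl at 0.32. The medians of those lists were 0.05 for sterol release, esterification and oxysterols, -0.11 for fatty acid uptake and storage, and 0.15 for fatty acid oxidation.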

How the data were processed

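Total RNA (6 µg) was labelled with biotin for Affymetrix arrays, per the labels' protocols. The deposited values, made by the authors, are on a log2 scale, as judged from their range (45101 probe sets on 4 arrays, medians 5.34 to 5.35). Per the submitters' processing notes R 2.7 was used; summarisation and normalization are not given in the sources used here. Arrays give no read depth, and their number limits the precision.

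Probe sets with 1 gene symbol in the platform annotation (34958, of which 34754 were updated through a RefSeq table) were kept, and the one with the highest mean was used per gene. Another 932 had several symbols and 9211 none. Groups, taken from the sample labels, were tested two-sided in limma (version 3.58.1, R 4.3.3) using eBayes with trend, without covariate, over all 18194 genes, with a threshold of 0.05 on the Benjamini-Hochberg adjusted p. The fit was also run on simulated arrays with independent noise, to check the direction and size of the changes put in. That noise holds no effect shared by arrays of one number, so the run does not cover such an effect. All members are named, with values per array for those with an unadjusted p under 0.05 and the 3 highest and 3 lowest changes of each branch, and for further members added after their values were seen. From other lists the genes that passed and the 3 largest changes are named. Members and lists were chosen with earlier results of these data known. Alternatives were other moderation, scaling, floor at the 20th percentile, offset of 32, filter, probe set and branch choices, replicate number as a term, and leaving out each array.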

Additional observations from a re-analysis of the deposited data

How the results depend on the processing

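The 2 arrays a group limit every statement, and in the main fit few genes are far enough from the spread to be called. The filter to genes above the median level kept 31 members and left out Insig1, Elovl6, Fads2 and Acsl3. The count of members past the threshold was 0 in the main fit. It stayed 0 in the limma fits without trend, with robust spread, median centring, floor, offset, averaged probe sets and the filter over those 31. It was 1 with quantile normalization (Insig1) and 0 to 1 when each array was left out (Pmvk without control replicate 1). With the floor no gene of 18194 was called by limma, against 3034 at an unadjusted p under 0.05. With the replicate block it was 17 (9 higher, 8 lower), or 48.6% of members, against 19.9% of all genes. The numbers are not stated to pair cultures, and deviations of same-numbered arrays correlated at 0.567 over genes in 2 pairs. Fits that leave out an array take the spread from the group that keeps both. The members whose arrays did not overlap were 23 to 31 with an array left out, where 1 array faces 2. The sterol median ran from -0.18 to 0.28 with an array left out, the control gene median from -0.51 to 0.089 and the branch difference from -0.19 to 0.021; averaged probe sets gave a difference of -0.21. The cause of these shifts was not tested.

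Over the 62 measured genes of the other lipid lists, the count past the threshold was 3 in the main limma fit. It was 2 without the trend (Acadl at an adjusted p of 0.0604) and 2 with quantile normalization (Ch25h at 0.0626). The count was 0 with the floor, 1 with the offset, 1 among genes above the median and 0 with averaged probe sets. With the replicate block it was 22, so it is not limited to the 3 genes named above. It also changed with an array left out. Averaged probe sets turned Acsl3 to -0.0054 and Hsd17b7 to -0.10. Further probe sets went the other way for Hmgcs1 (0.073), Fdft1 (-0.020 and -0.23), Lss (-0.0080), Cyp51 (0.14), Hsd17b7 (-0.18, -0.23 and -0.14), Acly (0.025 and 0.16), Acaca (-0.051), Fads1 (-0.013), Acsl3 (-0.037 and -0.063), Scap (0.12) and Stard4 (0.028). Leaving out 1 array turned 16 members, none past the threshold, with ranges of -0.10 to 0.53 for Acaca, -0.31 to 0.10 for Acly, -0.10 to 0.27 for Acsl3, -0.033 to 0.45 for Acss2, -0.58 to 0.44 for Cyp51 and -0.078 to 1.05 for Dhcr7. The ranges were -0.072 to 0.20 for Fads1, -0.24 to 0.43 for Fads2, -0.78 to 0.26 for Fasn, -0.025 to 0.32 for Hsd17b7, -0.017 to 0.82 for Mvd and -0.15 to 0.63 for Scd1. They were -0.18 to 0.68 for Sqle, -0.40 to 0.20 for Srebf2, -0.63 to 0.46 for Stard4 and -0.36 to 0.67 for Tm7sf2. The cause was not tested.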
